A study of Mus musculus with 2 samples.

Results

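ZBTB proteins pair an N-terminal BTB domain, which binds partner proteins and lets the protein pair with itself, with C-terminal zinc fingers that bind DNA. Many of them silence genes by recruiting corepressors such as BCOR with histone deacetylases, and some bring in the ubiquitin ligase scaffold CUL3. Members set the fate of blood cells, read methylated DNA or shape tissues, and ZBTB20 is known in liver as the repressor that shuts off alpha-fetoprotein after birth. The genes were taken by name, as all protein-coding genes whose symbol is Zbtb followed by a digit, which gave 41 of the 21866 protein-coding genes. One of the 41, Zbtb8os, shares the name but encodes archease, a cofactor of the RNA ligase that joins tRNA fragments, and no BTB zinc finger protein.

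CHOP, the C/EBP-family transcription factor encoded by Ddit3 and made under endoplasmic reticulum stress, was immunoprecipitated with its bound DNA, which was then sequenced. The livers came from wild-type (WT) mice injected intraperitoneally with tunicamycin, a blocker of N-linked glycosylation (1 mg/kg, 8 h). Chromatin from 3 mice was pooled into 1 immunoprecipitated library, which gave the 14157 peaks listed by the authors, and 1 input library from liver under the same treatment served as the control. There was no replicate, no untreated liver and no CHOP-deficient liver. The question addressed is at which of the ZBTB genes CHOP peaks lay in the stressed liver, where, and how strong they were. The genes were chosen by name, but with earlier results of these data known, and their peaks were selected on the summit positions in the same list, so all values are descriptions and none is tested.

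A peak counted as a promoter peak of a gene when its summit was within 1 kb of a start site of a protein-coding transcript. It counted as distal when it was further away but within 50 kb and no other protein-coding gene had a nearer start site. Distances are to the nearest such start site of the gene, and a summit is called inside the gene when it lies downstream of that start site. Strength is the authors' fold enrichment, the ratio of reads piled up at the summit to the local background, with 1 added to each. Intervals in brackets after a fold are 95% exact Poisson intervals on the summit reads, and they cover counting error only.

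Most ZBTB genes had a CHOP promoter peak in the authors' list, with a median fold a little above that of all genes with a promoter peak. A promoter peak was present at 29 of the 41 genes (70.7%, 95% Wilson interval 55.5 to 82.4%), against 6100 of all 21866 protein-coding genes (27.9%). Another 3 genes had a distal peak only, and 9 had no peak by either rule. The strongest promoter peak per gene had a median fold of 7.54 in the 29 genes, with a range of 4.56 to 20.8, against a median of 6.86 over all genes with a promoter peak. A fold of 10 or more was reached by 9 ZBTB genes (22.0%), against 1423 of all genes (6.51%). Among genes that had a promoter peak at all, this share was 31.0% for ZBTB genes and 23.3% for all genes.

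The sequences under 5 of the summits show what these peaks sit on. Each is read 5′ to 3′ on the coding strand of its gene from the mm10 sequence (RefSeq GRCm38.p6). Capitals mark a bZIP element, that is a C/EBP-ATF composite (TGATGNAA), a C/EBP palindrome (TTGCNNAA) or an AP-1 heptamer (TGANTCA), or, where no bZIP element was found, a GC box (GGGCGG). All were searched on both strands. The first 3 are the only promoter windows of the family that held a bZIP element, and the last 2 represent the GC-rich windows that were more common.
Zbtb44, chr9:31030301-31030401, plus strand, C/EBP palindrome: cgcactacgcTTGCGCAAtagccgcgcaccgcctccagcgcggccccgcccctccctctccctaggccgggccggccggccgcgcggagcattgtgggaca
Zbtb18, weaker peak, chr1:177443671-177443771, plus strand, composite element: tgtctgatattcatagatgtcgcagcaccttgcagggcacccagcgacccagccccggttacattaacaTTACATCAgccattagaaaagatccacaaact
Zbtb20, weaker peak, chr16:43362979-43363079, plus strand, AP-1 heptamer: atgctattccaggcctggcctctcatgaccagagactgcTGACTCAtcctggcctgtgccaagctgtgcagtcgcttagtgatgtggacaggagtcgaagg
Zbtb21, chr16:97962027-97962127, minus strand, 4 GC boxes: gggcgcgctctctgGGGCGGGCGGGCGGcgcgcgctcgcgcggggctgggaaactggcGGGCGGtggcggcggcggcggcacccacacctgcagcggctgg
Zbtb10, upstream peak, chr3:9250302-9250402, plus strand, 2 GC boxes: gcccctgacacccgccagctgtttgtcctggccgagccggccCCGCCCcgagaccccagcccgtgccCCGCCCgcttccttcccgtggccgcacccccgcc

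Less studied members were among those with the strongest peaks. Zbtb43 had a fold of 20.8 (15.5 to 27.3) on 50 reads, and its summit lies in the 5′ UTR, 1 bp inside the gene (chromosome 2, 33467963 to 33468709). This peak ranks at position 780 of the 14157 by fold. Around its summit a GC box lies on the coding strand, in the 30 bases at chr2:33468516-33468545: gacgagaggctcGGGCGGaagttgtccccg. Zbtb44 had a fold of 15.4 (11.3 to 20.6) on 44 reads, 293 bp upstream of a start site, and the palindrome shown above is centred 37 bp from the summit. Zbtb21, whose peak covers chromosome 16, 97961951 to 97962815, reached 14.6-fold (9.77 to 20.9) on 27 reads at 516 bp inside the gene. An alternative coding transcript of C2cd2, which overlaps Zbtb21, also starts within 1 kb of this summit.

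One peak served a pair of members. Zbtb1, which lymphoid cells need for their development, and Zbtb25 lie head to head on chromosome 12, and a single broad peak of 1995 bp (76369141 to 76371135) counted for both. Its fold was 17.9 (13.6 to 23.1) on 57 reads, the most reads of any promoter summit in the family. The summit is 114 bp inside Zbtb1, in its 5′ UTR, and 778 bp upstream of Zbtb25, so by nearest start site it belongs to Zbtb1 alone. Counted that way, 28 ZBTB genes had a promoter peak.

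**Figure D1:**
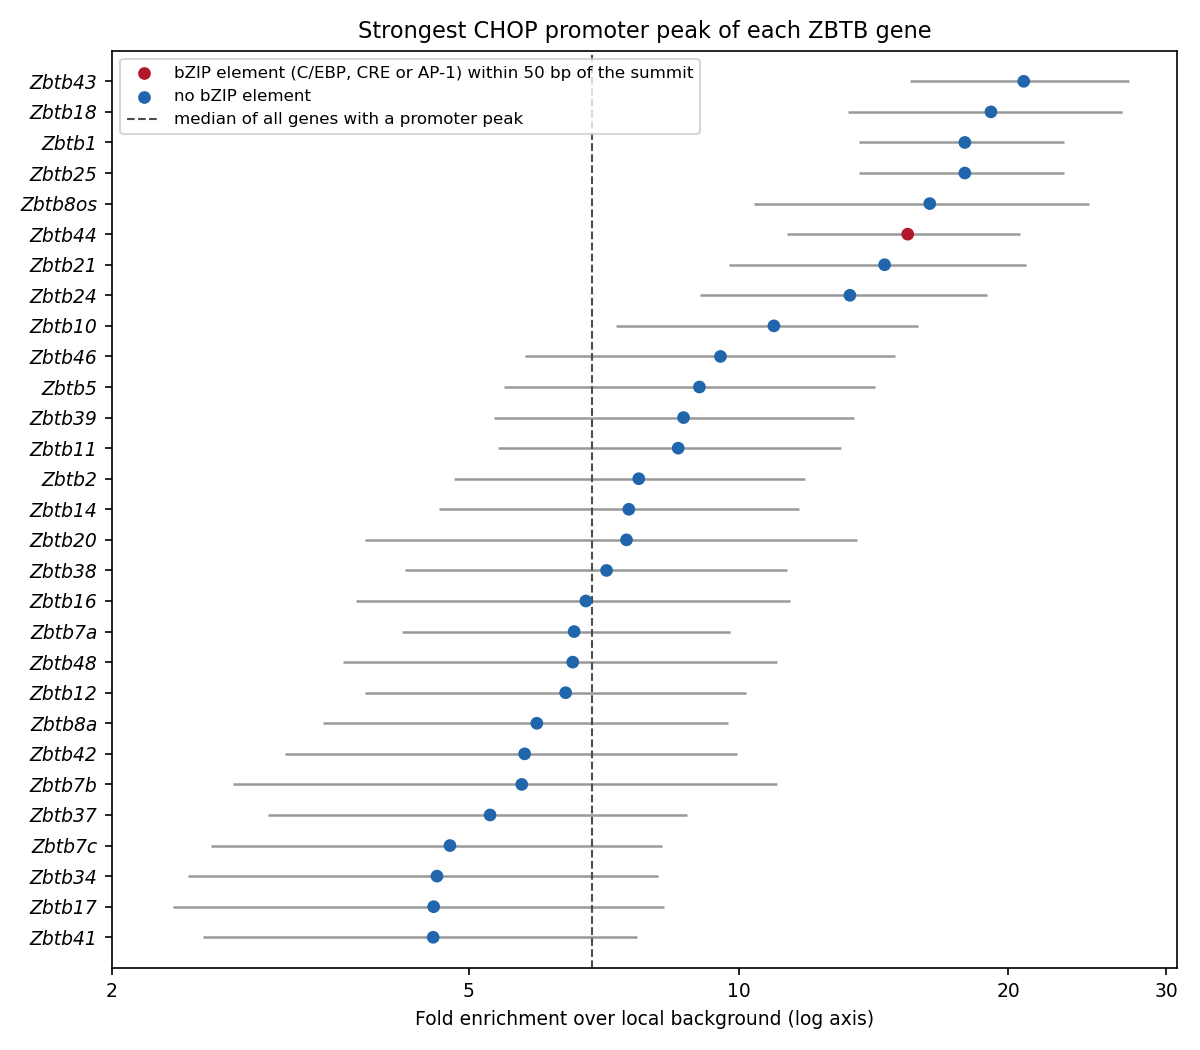
Fold enrichment (log axis) of the strongest CHOP promoter peak of each of the 29 ZBTB genes that had one, with the 95% exact Poisson interval of the summit reads as a horizontal line. The points run from 20.8 at Zbtb43 to 4.56 at Zbtb41, 9 intervals lie wholly above 6.86, the median of all genes with a promoter peak (dashed line), and the red point, Zbtb44, is the only strongest summit with a bZIP element within 50 bp.

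Counting error limits how far these genes can be ordered. The strongest promoter summits of the 29 genes held a median of 17 reads (7 to 57), against 14 for all genes with a promoter peak, and the local background there was a median of 1.39 reads, against 1.12. The interval lay wholly above the median fold of the whole peak list (6.75) at 9 of the 29 (31.0%), against 1254 of all 6100 genes with a promoter peak (20.6%). The 9 were Zbtb43, Zbtb18, Zbtb1, Zbtb25, Zbtb8os, Zbtb44, Zbtb21, Zbtb24 and Zbtb10. Intervals of neighbours in the order overlap throughout, and that of Zbtb43 still meets that of Zbtb10 (10.9-fold, 7.30 to 15.9), ninth in the order. It does not meet that of Zbtb41 (4.56-fold, 2.53 to 7.71).

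The members were sorted into groups by role after their values were seen, so a count within a group only describes it, beside 27.9% of all genes and 70.7% of the family. Members that direct blood and immune cell fate had promoter peaks at 6 of 7 genes, with a median fold of 6.66. Zbtb46, a marker of dendritic cells, had a 9.55-fold peak (5.78 to 15) at 503 bp inside the gene. Zbtb16, encoding PLZF, which guides innate-like T cells and germline stem cells, had a 6.76-fold peak (3.74 to 11.4), close to the 1 kb limit at 739 bp inside. Zbtb17, encoding the MYC partner MIZ1, had one of the weakest peaks, 4.57-fold (2.34 to 8.26) on 9 reads. Zbtb32, a repressor in lymphocytes, was the member of this group with no peak: the summit nearest to it was 4259 bp away, had a fold of 13.0 and lay nearer to the start of Kmt2b, which encodes a histone methyltransferase.

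The paralogues Zbtb7a, Zbtb7b and Zbtb7c had promoter peaks with folds below 6.86, the median of all genes with a promoter peak. Zbtb7a, encoding LRF, which represses fetal globin and directs lymphoid lineage choice, had a pair of peaks, at 2 bp (6.56-fold, 4.21 to 9.78, 22 reads) and 382 bp (6.04-fold) inside start sites. Zbtb7b, encoding ThPOK, the commitment factor of helper T cells, had 5.73-fold (2.73 to 11.1) at 855 bp inside and 4.63-fold at 305 bp upstream of its start sites, both on 7 reads. Both summits lie in an intron of the gene. Zbtb7c had 4.77-fold (2.58 to 8.21) on 11 reads, 139 bp inside a start site. All these summits lie more than 1 kb downstream of the first annotated start of their gene. The distance was 2.735 and 1.74 kb at Zbtb7a, 3.562 and 2.402 kb at Zbtb7b and 239.4 kb at Zbtb7c. The intervals of the strongest peaks of these 3 paralogues overlap, and each includes 6.75, the median fold of the list.

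Members of tissue development had promoter peaks at 3 of 3 genes, a group drawn after the values were seen, against 27.9% of all genes. Zbtb18, which encodes the neuronal and muscle repressor RP58, had the second-highest fold of the family. Its broader peak of 1541 bp (chromosome 1, 177441590 to 177443130) had a fold of 19.1 (13.3 to 26.7) on 32 reads. The summit is 330 bp upstream of the nearest coding start site, in repeat-masked sequence with no bZIP element. It lies in an intron of the gene, 535 bp downstream of the first annotated start. Its narrower peak, 505 bp inside, had a fold of 10.5 (5.94 to 17.4) on 13 reads and holds the composite element shown above, centred 22 bp from the summit. Zbtb42, the muscle paralogue of Zbtb18, had a pair of narrow peaks of 172 bp each at 5.77-fold (3.12 to 9.95) and 5.48-fold, below both peaks of Zbtb18.

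Zbtb20, a member with a known role in hepatocytes, had several peaks spread over a long gene, all with folds under 10. Its promoter peaks had folds of 7.5 (3.84 to 13.6) on 9 reads and 4.58 (2.1 to 9.20) on 6 reads, at 563 and 844 bp upstream of a start site, and both summits lie in an intron of longer transcripts. The weaker one holds the AP-1 heptamer printed above, centred 8 bp from the summit. Zbtb20 also had 3 of the 10 distal peaks of the family: 9.0-fold (4.87 to 15.5), 6.60-fold and 5.94-fold. The first lies in an intron, 33.8 kb downstream of the nearest start site of a coding transcript and 522.1 kb downstream of the first annotated start of the gene. The other two are 32.5 and 31.5 kb upstream of the nearest coding start site, but only 714 bp upstream and 225 bp downstream of that first annotated start, which belongs to a transcript not annotated as coding. With the start sites of all transcripts they counted as promoter peaks, and the distal peaks of the family numbered 8. With 11 start sites it offers more places for a promoter peak than most genes, for which the median is 2 both in the family and overall. Its promoters are poor in CpG (ratio 0.252), the lowest value among members with a promoter peak. The summits of its 7.5-fold promoter peak and its 5.94-fold distal peak lie in repeat-masked sequence.

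Members that bind methylated DNA or maintain it had promoter peaks at 2 of 4 genes. Zbtb24, which keeps satellite DNA methylated and is lost in an inherited immunodeficiency with centromere instability, had a 13.3-fold peak (9.06 to 18.9, 29 reads) 34 bp inside its start site on chromosome 10, 41450210 to 41450759. At Zbtb38 the fold was 7.12 (4.25 to 11.3), with the summit 318 bp before the nearest start. That summit lies in a 5′ UTR of the gene, 32.95 kb downstream of its first annotated start. Zbtb33, encoding Kaiso, had no peak although its CpG ratio of 0.801 is near that of Zbtb24 (0.805), and the nearest summit on the X chromosome was 39.8 kb away. Zbtb4, the fourth of this group, had no promoter peak but the strongest distal peak of the family, described below.

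Members tied to growth control, GC-rich DNA and telomeres, again grouped after the values were seen, had promoter peaks at 5 of 5 genes, against 27.9% of all genes. Zbtb10, which binds GC-rich promoter sequence, had a peak on either side of its start site: 10.9-fold (7.30 to 15.9) in the coding exon at 660 bp inside and 10.6-fold (7.0 to 15.5) at 250 bp upstream, the window shown above. Zbtb5, a repressor of the cell cycle inhibitor gene Cdkn1a, had 9.04-fold (5.48 to 14.2) and Zbtb2, a repressor in the p53 pathway, 7.74-fold (4.81 to 11.9). Zbtb14, a repressor that binds GC-rich promoters, had peaks of 7.54-fold (4.63 to 11.7) and 5.66-fold on either side of its start site. The summit of the stronger of these lies in repeat-masked sequence. Zbtb48, encoding the telomere-binding protein TZAP, had 6.53-fold (3.62 to 11.0) on 12 reads, 90 bp inside the gene. The intervals of the strongest peaks of all 5 overlap.

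The remaining BTB zinc finger members with promoter peaks had folds under 10. Zbtb39 had a fold of 8.68 and Zbtb11 of 8.56, on 18 and 20 reads. Zbtb12 (6.41), Zbtb8a (5.96), Zbtb37 (5.28), Zbtb34 (4.61) and Zbtb41 (4.56) had folds below the median of all genes with a promoter peak, on 10 to 16 reads. The Zbtb12 summit also lies within the annotated span of the gene C2, 14.76 kb downstream of the first annotated start of Zbtb12. Archease, the gene Zbtb8os, had peaks of 16.3-fold (10.4 to 24.6, 21 reads) at 5 bp inside and 8.52-fold at 217 bp upstream of its start sites, and both lie within 1 kb of a start of Rbbp4, a histone chaperone gene. Its neighbour Zbtb8a had its own peak, and Zbtb8b none.

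**Figure D2:**
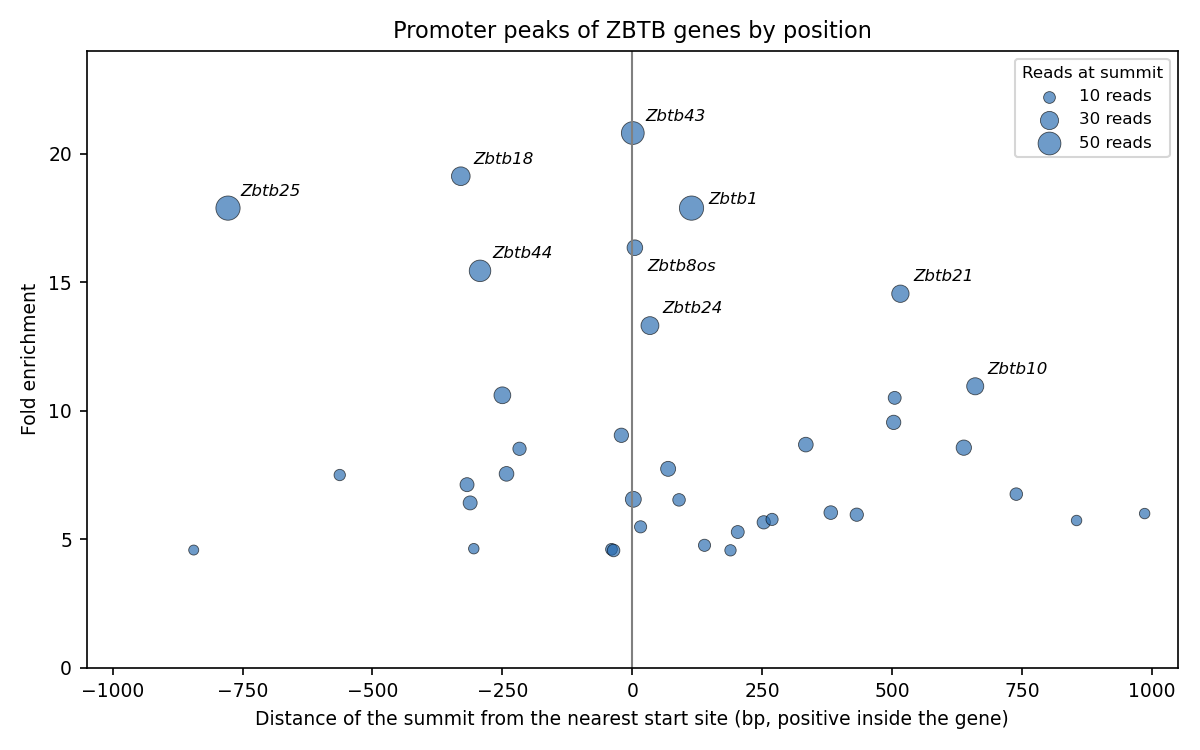
Fold enrichment of the promoter peaks of ZBTB genes against the distance of the summit from the nearest start site of that gene, with the area of a point growing with the reads at the summit. The peak shared by Zbtb1 and Zbtb25 is drawn for both genes; 19 of the 29 strongest summits lie at or inside the start site, and 9 lie within 100 bp of it.

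Positions and widths of the family's peaks were set beside those of all genes. In the 29 genes the strongest summit had a median distance of 269 bp to the start site, against 111 bp over all genes with a promoter peak, and 9 of the 29 (31.0%) were within 100 bp, against 47.2%. In the gene models 14 of the 29 summits fell in an intron, 10 in a 5′ UTR, 4 outside the protein-coding transcripts and 1 in a coding exon. This breakdown was not made for all genes, so these counts have no background beside them. Downstream of or at the start site were 19 (65.5%), against 59.4% of all genes. The median width of these peaks was 498 bp, against 367 bp. A start site of another protein-coding gene lay within 1 kb of the summit for 4 of the 29 (13.8%), against 19.1%. Among summits that gave a gene its only promoter peak, those nearest to the 1 kb limit were at Zbtb16 (739 bp) and Zbtb25 (778 bp), and the first summit outside it, at Zbtb39, was 2409 bp away.

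More than 1 promoter peak was found at 9 members (22.0%), against 788 of all genes (3.6%). Among genes with any promoter peak the share was 31.0% for ZBTB genes and 12.9% for all genes. The 9 members were Zbtb7a, Zbtb7b, Zbtb8os, Zbtb10, Zbtb14, Zbtb18, Zbtb20, Zbtb21 and Zbtb42. The 29 genes therefore had 37 distinct promoter peaks. The second peak of Zbtb21 was 6.0-fold on 7 reads, at 986 bp the summit nearest to the limit. Genes with more start sites offer more places for a second peak. Zbtb18 and Zbtb20 have 11 start sites, Zbtb7b has 8, and Zbtb7a and Zbtb21 have 6, against a median of 2 over all genes. Zbtb14 and Zbtb42 have 3, Zbtb8os has 2 and Zbtb10 has 1. The part of start sites in the share with more than 1 promoter peak was not tested.

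The promoters of the family are rich in CpG, a feature that goes with CHOP promoter peaks across all genes. The ratio of observed to expected CpG within 500 bp of the start sites had a median of 0.746 in the 41 genes and 0.507 over all genes, and the GC share was 58.5% against 53.5%. Genes were divided into 4 classes of equal size by this ratio. In the class of highest ratio, 21 of 23 ZBTB genes had a promoter peak, against 61.4% of all genes there. In the class below it the count was 6 of 13, against 36.1%, and in the next one 2 of 5 (Zbtb7b and Zbtb20), against 12.8%. No ZBTB gene is in the lowest class, where 1.32% of genes had a peak. At the rates of all genes in each class, 19.4 of the 41 would have one, and 29 did. The part of base composition in the family's share beyond these classes was not tested.

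The number of annotated start sites moves with the share across all genes, and in the family the order was uneven. Genes with 1 start site had a promoter peak in 6 of 8 cases in the family, against 19.9% of all genes, and those with 2 in 8 of 14, against 25.1%. With 3 or 4 start sites the count was 6 of 9, against 33.9%, and with 5 or more it was 9 of 10, against 47.9%. With the outermost start site of each gene alone, 23 ZBTB genes had a promoter peak, against 25.3% of all genes.

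**Figure D3:**
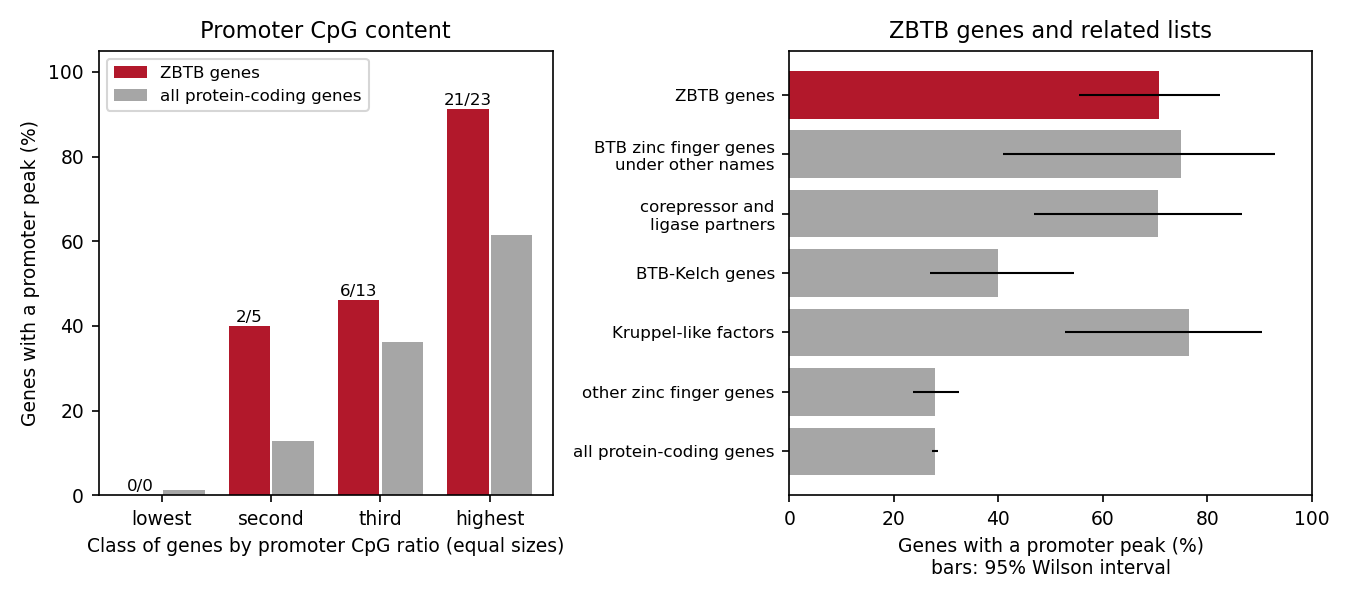
Share of genes with a CHOP promoter peak (%). In the left panel ZBTB genes (red, with counts) and all protein-coding genes (grey) are split into 4 classes of equal size by promoter CpG ratio, and the red bars are above the grey ones in the upper 3 classes; in the right panel ZBTB genes and related lists are shown with 95% Wilson intervals, from 27.9% for other zinc finger genes to 76.5% for Kruppel-like factors.

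Sequences of the kind CHOP and its bZIP partners bind were few at the family's promoter summits, as at those of all genes. Among the strongest promoter summits of the 29 genes, 1 (3.45%, Zbtb44) had a composite element, C/EBP palindrome, CRE palindrome (TGACGTCA) or AP-1 heptamer within 50 bp, against 5.52% of all genes with a promoter peak and 6.74% of windows of the same length at the start sites of all genes. Over the 37 distinct promoter peaks it was 3 (8.11%), against 5.69% of all promoter peaks. Among strongest summits in the class of highest CpG ratio it was 1 of 21 (4.76%), against 3.93% of all genes with a peak there. No composite element was found at any of the 29 strongest summits, and none of the 10 distal summits held a bZIP element, against 19.8% of all distal summits given to genes. With windows of 100 bp on either side the count for the strongest summits was 3, and with 25 bp it was 0.

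GC-rich elements were found more often than bZIP elements. A GC box lay within 50 bp of 16 of the 29 strongest summits (55.2%), against 46.2% of all genes with a promoter peak and 27.9% of start sites of all genes. An element of NRF1, a factor of housekeeping promoters, was found at 6 (20.7%), against 8.16% and 4.71%, and an ETS core (CCGGAA) at 5 (17.2%), against 8.15% and 9.99%. A CCAAT box (CCAAT) was found at 1 (3.45%), against 7.49% and 14.5%, and an E-box (CACGTG) at 1 (3.45%), against 5.84% and 3.36%. In the class of highest CpG ratio alone, the GC box share was 13 of 21 (61.9%), against 48.5% of all genes with a peak there, and that of NRF1 was 4 of 21 (19%), against 9.65%. The ETS core was found there at 2 of 21 (9.52%), against 8.46%. With 29 genes, a single gene moves a share by several percentage points. The short GC box and the NRF1 element can overlap in GC-rich sequence.

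**Figure D4:**
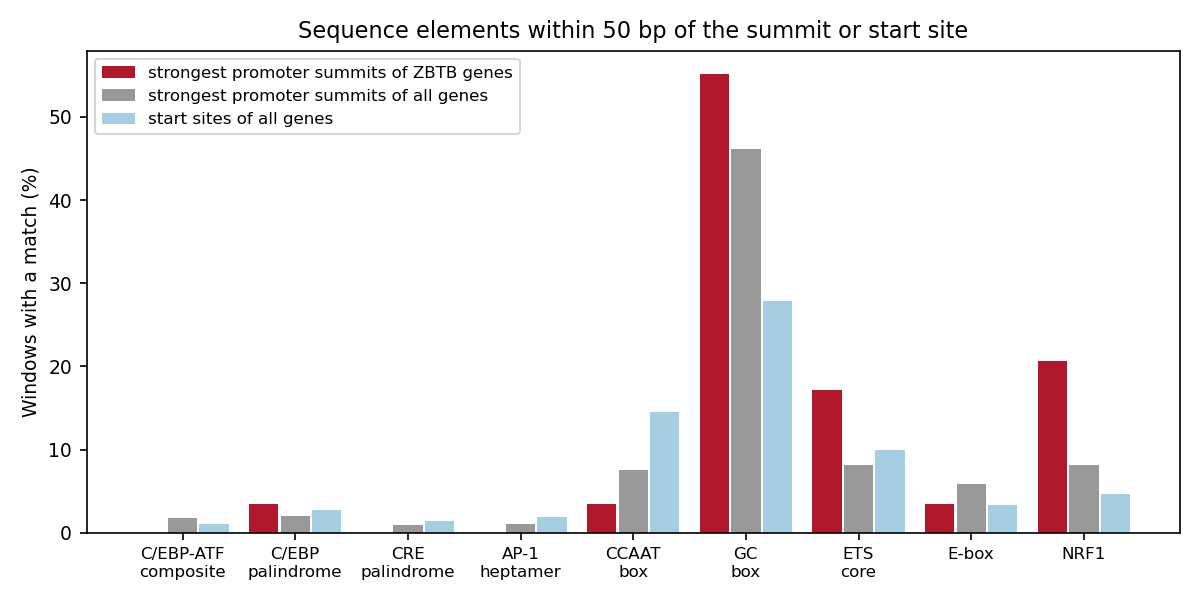
Share (%) of windows reaching 50 bp to either side that held each sequence element on either strand, for the strongest promoter summits of the 29 ZBTB genes (red), those of all 6100 genes with a promoter peak (grey) and the start sites of all genes (blue). The GC box is the most common element in each set, with 55.2%, 46.2% and 27.9%, and the bars of the composite, CRE and AP-1 elements are at 0 for ZBTB genes.

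Distal peaks were few. They were found at 7 of 41 ZBTB genes (17.1%), a share near that of all genes (18.0%), and numbered 10, with a median fold of 6.0 against 6.75 for all distal peaks given to genes. The strongest belonged to Zbtb4, which encodes a repressor that binds methylated CpG: 31.5-fold (22.8 to 42.5) on 41 reads. The local background there was 0.3334 reads, the lowest value among the family's peaks. The peak lies just past the end of the gene on chromosome 11, 69784256 to 69784565. Its summit is 9.01 kb downstream of the nearest coding start site of Zbtb4 and 18.5 kb downstream of the first annotated start. The summit lies within the annotated span of Chrnb1, the gene of an acetylcholine receptor subunit on the other strand, so position alone does not tie it to Zbtb4. This peak is 310 bp wide and its summit lies in repeat-masked sequence. Of all distal peaks given to genes, 22.0% were 290 to 340 bp wide and 39.2% had repeat-masked summits, and the part of repeats in the fold at Zbtb4 was not tested.

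The other distal peaks were at Zbtb34, Zbtb20, Zbtb39, Zbtb49, Zbtb16 and Zbtb9. A 12.6-fold peak (7.54 to 20.1) on 16 reads lay 13.3 kb upstream of Zbtb34, between it and its neighbour Zbtb43, and another of 6.0-fold lay in the 3′ UTR of Zbtb34. The distal peaks of Zbtb49 (5.01-fold), Zbtb16 (4.50-fold) and Zbtb9 (4.45-fold) were 172 bp wide and rested on 5 or 6 reads. Zbtb4, Zbtb9 and Zbtb49 are the members with a distal peak only.

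No peak by either rule was found at Zbtb3, Zbtb6, Zbtb8b, Zbtb22, Zbtb26, Zbtb32, Zbtb33, Zbtb40 and Zbtb45. Zbtb6 and Zbtb26 start next to each other on chromosome 2, and the nearest summit was more than 100 kb away from either, at 122 kb. Zbtb40 was nearly as isolated, with the closest summit at 113 kb, near C1qb. Zbtb45 had a 9.13-fold summit 14.5 kb away that is nearer to the start of Trim28, which encodes the corepressor KAP1 of another class of zinc finger proteins. The 12 members with no promoter peak had a median CpG ratio of 0.592 (0.241 to 0.819), against 0.795 (0.252 to 1.01) in the 29 members with one, so the ranges overlap.

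Genes related by protein family or function gave a mixed picture. Of 8 BTB zinc finger genes under other names, 6 had a promoter peak, against 27.9% of all genes. Bcl6, a repressor of germinal centre B cells that in liver also restrains fat oxidation genes, had a 57.6-fold peak (47.8 to 68.8) on 120 reads, above every ZBTB gene. Gzf1 had 24.7-fold (17.8 to 33.4) on 40 reads, and Hic2, Patz1, Zfp131 and Hic1 had folds between 4.26 and 7.74, while Bcl6b and Mynn had none. Genes for corepressors and ligase parts that BTB zinc finger proteins bind had a promoter peak in 12 of 17 cases (70.6%, Wilson 46.9 to 86.7%), against the same 27.9%. They were led by Hdac4 (12.2-fold), Hdac5 (11.2-fold) and Ncor1 (10.2-fold). The median CpG ratio was 0.745 in the BTB zinc finger genes under other names and 0.6 in the partner genes, against 0.507 over all genes.

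Lists related to the family by the BTB domain or by zinc fingers were counted for comparison, beside 27.9% of all genes. The list of other zinc finger genes was taken by symbol and also holds Zfp131, a BTB zinc finger gene counted above. Against 29 of 41 ZBTB genes, BTB-Kelch genes, most of which encode substrate adaptors of CUL3, had a promoter peak in 18 of 45 cases (40.0%, Wilson 27.0 to 54.5%), and other zinc finger genes, with symbols of Zfp and a digit, in 110 of 394 (27.9%, 23.7 to 32.5%). Kruppel-like factors, which bind GC boxes, had one in 13 of 17 (76.5%, 52.7 to 90.4%), led by Klf11 at 17.3-fold, an interval that covers the 70.7% of the family. The median CpG ratio was 0.746 in ZBTB genes, against 0.571 in BTB-Kelch genes, 0.521 in other zinc finger genes and 0.748 in Kruppel-like factors. Differences in share between these lists were not tested, nor was the part of CpG content in them.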

How the data were processed

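The authors' list of CHOP peaks from 1 pooled library was analysed; the input library enters through each peak's local background. Per the labels' protocols, Bowtie (version not given in the sources used here) placed single-end reads on mm10 with up to 2 mismatches, and stacks above 2 reads were dropped. Per the submitters' processing notes and the labels' protocols, SAMtools 1.9 and Sambamba 0.7.1 filtered the alignments and MACS2 2.1.2 called peaks. The authors deposited for each peak a fold, −log10 p, −log10 q, a score (not used) and a summit offset. The fold is the ratio of summit pileup to background, with 1 added to each. The total depth of the library is unknown.

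Whole-number summit reads and background were solved from fold and −log10 p in all 14157 peaks (largest residual 3.13e-05 in −log10 p), after the solver was tested on simulated data. Start sites came from GENCODE M21 protein-coding transcripts, and sequence from GRCm38.p6, the build of mm10. CpG ratio and GC share were taken within 500 bp of the start sites. Elements were searched within 50 bp of summits. Reads carry no molecular identifiers.

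The members, lists, role groups and elements were chosen with earlier results of these data known, and the role groups after the members' values were seen. Genes were named by a rule: well-studied members, the 12 of highest promoter fold, those with the 5 strongest distal peaks, with 2 or more promoter peaks or with none, and up to 3 genes per related list. The other members were added to account for all 41. Bcl6b, Mynn, Patz1, Zfp131, Hic1, Kmt2b, Rbbp4, C1qb, C2, C2cd2, Chrnb1 and Trim28 were named after their values were seen. Alternatives changed peak thresholds, distances, start sites, assignment, repeats and windows. Python 3.11.15, numpy 2.4.6, pandas 2.3.3, scipy 1.17.1, pysam 0.24.0 and matplotlib 3.10.9 were used.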

Additional observations from a re-analysis of the deposited data

How the results depend on the processing

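The count of ZBTB genes with a promoter peak ran from 18 to 29 over 11 alternatives and was within 1.5 times of 29 in 10 of them. It was 18 with peaks at or above the median fold (background 14.7% of all genes), 24 with −log10 q of at least 5 (21%), 25 with a fold of at least 5 (23.5%), 23 with summits within 500 bp (25.8%) and 28 of 40 without Zbtb8os. The median promoter fold ran from 7.12 to 10.2 over its 11 alternatives. The distal count of 10 was 3 with peaks at or above the median fold and 3 with a limit of 10 kb, and ran from 7 to 13 in the other alternatives. The count of strongest summits with a bZIP element, 1, was 3 with a window of 100 bp, 0 with 25 bp and 0 with the composite element alone. Depth limits the weakest peaks most, since 4 of the 29 strongest summits held 10 or fewer reads. No paired analysis was possible because the immunoprecipitate and the input are 1 library each and the peak list is a single comparison.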
